A study of Mus musculus with 57 samples.

Results

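The 9 genes described here, Hmox1, Blvrb, Fth1, Ftl1, Slc40a1, Tfrc, Nqo1, Gclm and Hpx, break down heme, store and move iron, and answer oxidative stress. They were chosen by gene name, with earlier results of these data known, from the 56332 genes of the deposited table, and each matched 1 Ensembl gene ID. Their levels and differences are therefore descriptions, without p-values of their own. The data are RNA-seq of mouse bone marrow from 57 libraries. Male C57BL/6 mice, labelled as 8 weeks old, were given an antibody against PAPP-A for 4 weeks, and the others were given the control treatment. PAPP-A, encoded by Pappa, is a secreted protease that frees insulin-like growth factors from their binding proteins.

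Both treatments were sequenced in 6 sorted populations. Mesenchymal stromal cells (MSC) gave 4 anti-PAPP-A and 6 control libraries, and haematopoietic stem cells (HSC) gave 4 and 3. Progenitors of megakaryocytes and red cells (MEP), of granulocytes and monocytes (GMP) and of lymphocytes (CLP) gave 4 anti-PAPP-A and 4 control libraries each, and Myeloid cells gave 6 and 6. Whole bone marrow (WBM) was sequenced from 4 control pools only. A library is 1 pool of mice, the labels give neither the number of mice in a pool nor the sorting markers, and the same pool number marks the same mice in each population. HSC, CLP, GMP and MEP came from batch A, Myeloid from batches B and C, and MSC and WBM from batches A and C.

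Heme oxygenase 1 (Hmox1) opens the heme ring and releases iron, carbon monoxide and biliverdin, and biliverdin reductases turn biliverdin into bilirubin. Freed iron is stored in ferritin shells of heavy (Fth1) and light (Ftl1) chains or leaves through ferroportin (Slc40a1), while transferrin-bound iron enters through the transferrin receptor (Tfrc). In marrow, erythroid precursors take up most of the iron, and macrophages that engulf old red cells recycle it. Hmox1, the ferritin genes, Slc40a1, Nqo1 and Gclm are known targets of the transcription factor NRF2, and BACH1, a repressor that lets go of DNA when it binds heme, holds Hmox1 down.

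Ferritin, ferroportin and transferrin receptor mRNAs carry iron-responsive elements, hairpins bound by iron regulatory proteins when iron is short. An element before the coding sequence then blocks translation, and elements after the coding sequence then keep the mRNA stable, so read counts can show the effect on Tfrc but not a block of translation. The hairpins below are shown because they divide the iron genes in this way. They were found in the GENCODE M21 transcripts (GRCm38) as a C bulge, 5 bases, the loop CAGTGN and 5 bases that pair with the first 5, with G-T pairs allowed, on the transcript strand. T is written for U, and capitals mark the loop.
Fth1-201 5′ UTR, chr19:9982732-9982760, plus strand: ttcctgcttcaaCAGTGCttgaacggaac
Ftl1-201 5′ UTR, chr7:45459779-45459807, minus strand: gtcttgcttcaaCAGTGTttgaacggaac
Slc40a1-201 5′ UTR, chr1:45925465-45925493, minus strand: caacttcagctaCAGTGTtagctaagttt
Tfrc-201 3′ UTR, chr16:32631219-32631247, plus strand: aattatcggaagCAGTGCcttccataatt
Tfrc-201 3′ UTR, chr16:32631598-32631626, plus strand: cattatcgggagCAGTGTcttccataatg
Tfrc-201 3′ UTR, chr16:32631663-32631691, plus strand: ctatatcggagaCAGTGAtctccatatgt
Tfrc-201 3′ UTR, chr16:32631710-32631738, plus strand: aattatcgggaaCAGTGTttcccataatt

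The same pattern occurred in 21 of 18491 searched 5′ UTRs (0.114%) and in 93 of 19073 searched 3′ UTRs (0.488%). The searched transcripts of Hmox1, Blvrb, Nqo1, Gclm and Hpx held no such match. Transcripts of Slc40a1 that lack the hairpin are known from erythroid and gut cells, and the gene-level counts do not separate them.

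Total estimated counts per library ranged from 107412 to 125537299, and 4 libraries held fewer than 1000000. These were HSC anti-PAPP-A pool 6 with 107412, MSC control pool 7 with 321860, MSC anti-PAPP-A pool 8 with 499300 and CLP control pool 5 with 587316. Levels below are counts per 1000000 counts of the library (CPM), with library sizes adjusted by the TMM method of edgeR. The stromal list summed to 40282 to 74262 CPM in MSC and to at most 568.3 CPM in any other sort. Among control sorts, the stem cell list was highest in HSC (551 to 655 CPM), the GMP list in GMP (23860 to 36329 CPM) and the neutrophil list in Myeloid (174845 to 225184 CPM). In MEP the erythroid list summed to 2235 to 3577 CPM, which overlaps with the 809 to 3653 CPM of MSC, and the megakaryocyte list to 186 to 339 CPM, below the 692 to 852 CPM of HSC. Other cell types were visible in some libraries: the lymphoid progenitor list, at 3031 to 10028 CPM in control CLP, summed to 27680 CPM in MSC anti-PAPP-A pool 8 and 106876 CPM in MSC control pool 7, against 584 to 1953 CPM in the other 8 MSC libraries. The neutrophil list summed to 9687 CPM in CLP anti-PAPP-A pool 2 and 9820 CPM in CLP control pool 1, against 1303 to 3817 CPM in the other 6 CLP libraries. It summed to 6330 CPM in MEP anti-PAPP-A pool 2, against 245 to 859 CPM in the other 7 MEP libraries. The GMP list summed to 2915 to 10680 CPM in control CLP, with a median of 7245 CPM, above the 4907 CPM median of the lymphoid progenitor list. The mast cell and basophil list reached 3334 CPM in control CLP, where its median was 239 CPM. In bulk RNA, fewer cells of a type and less RNA per cell cannot be told apart.

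Hmox1 (chr8:75093621-75100589, plus strand) split the control populations into a high and a low set. It stood at 100.2 ± 127.4 CPM in MSC (SD, n = 6), 78.4 ± 18.6 CPM in WBM (n = 4) and 74.7 ± 28.7 CPM in Myeloid cells (n = 6). It stood at 3.55 ± 1.53 CPM in HSC (n = 3), 2.01 ± 1.47 CPM in CLP, 1.59 ± 0.660 CPM in GMP and 1.01 ± 0.233 CPM in MEP (n = 4 each). Only the step from Myeloid to HSC separated neighbours in this order, and each other pair of neighbours had overlapping ranges. The lowest Myeloid library held 27.9 CPM and the highest HSC library 5.32 CPM.

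The place of MSC at the top of that order rested on batch C. The batch A library from anti-PAPP-A mice held 24.4 CPM of Hmox1, and its 3 control libraries held 23.2, 20.6 and 20.8 CPM. The batch C libraries held 298, 90.6 and 79.0 CPM with anti-PAPP-A and 349, 107 and 80.0 CPM with control treatment. All 4 batch A libraries were below the 60.8 to 98.5 CPM of the WBM libraries. Pool 16 (anti-PAPP-A) and pool 15 (control) were far above the other 4 libraries of batch C. The fitted anti-PAPP-A minus control difference, with batch as a term, was -0.21 on the log2 scale (SE 0.59), ran from -0.79 to 0.56 over 15 other settings, and the ranges overlapped.

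A list of 11 stress and early-response genes, such as Fos, Jun and Hspa1a, was, like Hmox1, lower in each batch A than in each batch C MSC library. Its summed level was 6713 CPM in the anti-PAPP-A library and 7713 to 12330 CPM in the control libraries of batch A. The batch C sums were 18147 to 31577 CPM with anti-PAPP-A and 15521 to 22615 CPM with control treatment. This response and other differences between the batches cannot be told apart here, and its part in the level of Hmox1 was not tested. Spic, the regulator that marks heme-recycling macrophages, was at 0 in all 10 MSC libraries, and Cd163, the macrophage receptor for hemoglobin, reached at most 4.01 CPM there. Cd163 averaged 6.38 to 11.8 CPM in control HSC, CLP, GMP and MEP. A list of 13 macrophage genes, Vcam1 left out, had a control median of 177.4 CPM in MSC. Its median was 190.4 CPM in WBM, 110.6 CPM in Myeloid and 29.2 to 43.9 CPM in HSC, CLP, GMP and MEP. The part of macrophage RNA in the level of Hmox1 was not tested.

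**Figure D1:**
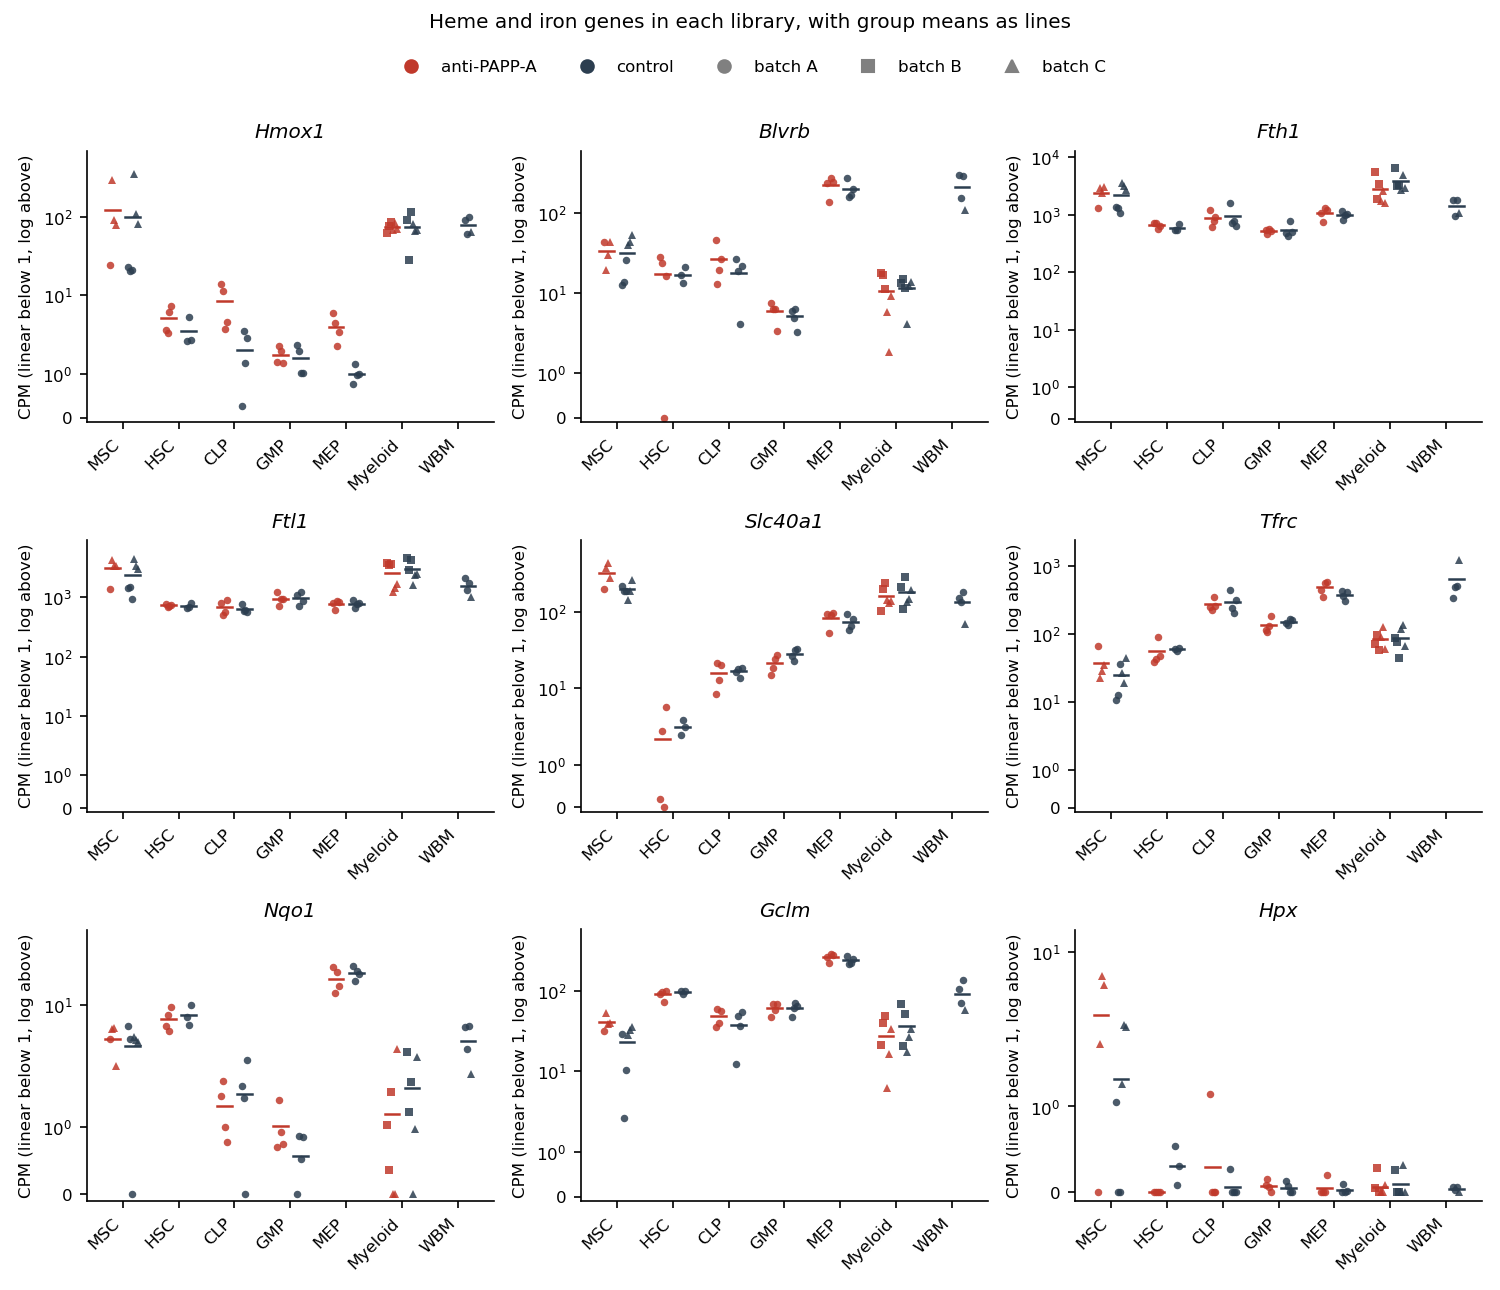
CPM of each of the 9 genes in the 57 libraries (vertical axis linear below 1 and logarithmic above), by population, with anti-PAPP-A libraries in red on the left, control libraries in dark blue on the right, marker shapes for batches and lines at the group means. Hmox1 is high in MSC, Myeloid and WBM, Blvrb, Nqo1 and Gclm are high in MEP, and Hmox1 of MSC splits by batch.

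In MEP, Hmox1 was higher in each anti-PAPP-A pool than in each control pool. The anti-PAPP-A libraries of pools 2, 4, 6 and 8 held 5.96, 4.42, 2.25 and 3.44 CPM, and the control libraries of pools 1, 3, 5 and 7 held 0.765, 1.33, 0.975 and 0.990 CPM. The ranges did not overlap, and the ratio of the means was 3.96. The values rest on 18 to 71 counts per anti-PAPP-A library and 8 to 45 counts per control library. The log2 difference was 2.00 (SE 0.34) and lay between 1.74 and 2.19 when any 1 library was left out, with 1.74 without pool 2, the library with neutrophil genes. Of the 13307 genes tested in MEP, 134 (1.01%) had each anti-PAPP-A library above each control library.

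No gene passed the adjusted threshold in MEP with the edgeR quasi-likelihood test, so Hmox1 was not called there. DESeq2 called 13 genes in MEP, 0.0540% of the 24078 to which it gave an adjusted p, and Hmox1 was 1 of them. Even in the treated MEP libraries, Hmox1 stayed far below the level of MSC, Myeloid and WBM libraries.

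CLP showed the same direction with a narrower gap. The anti-PAPP-A libraries of pools 2, 4, 6 and 8 held 14.1, 11.4, 3.79 and 4.64 CPM of Hmox1, and the control libraries of pools 1, 3, 5 and 7 held 0.272, 3.54, 1.39 and 2.85 CPM. The ranges did not overlap, but the lowest anti-PAPP-A and the highest control library lay close together. Control pools 1, 5 and 7 rested on 1, 1 and 4 counts. The log2 difference was 2.10 (SE 0.78), 1.61 without anti-PAPP-A pool 2 and 1.17 without both anti-PAPP-A pool 2 and control pool 1, the libraries with neutrophil genes. Of 12520 genes tested in CLP, 43 (0.343%) had each anti-PAPP-A library above each control library, and none was called by edgeR or by DESeq2.

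The pools with the most Hmox1 were the same in both populations, pools 2 and 4. In HSC the same pools held 3.64 and 3.33 CPM, pool 8 held 7.34 CPM and pool 6 held 6.09 CPM on 1 count. The control HSC libraries held 2.62, 5.32 and 2.70 CPM, and the ranges overlapped (log2 difference 0.53, SE 0.52). In GMP the anti-PAPP-A libraries held 1.41, 2.28, 1.97 and 1.38 CPM and the control libraries 2.33, 1.96, 1.02 and 1.04 CPM (log2 difference 0.21, SE 0.40). Neither of these sorts separated the treatments.

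Lists of other cell types moved with treatment in MEP. Of 11 tested neutrophil genes, 11 had positive log2 differences, with a median of 2.06. So had 6 of 6 B and plasma cell genes, with a median of 1.06. The neutrophil list summed to 6330, 519, 344 and 450 CPM in anti-PAPP-A and 859, 614, 245 and 311 CPM in control MEP libraries, so that pool 2 stood apart and the others overlapped. The B and plasma cell list summed to 63.7 to 146 CPM in anti-PAPP-A and 61.4 to 80.5 CPM in control MEP libraries. The 14-gene macrophage list summed to 24.4 to 43.0 CPM in anti-PAPP-A and 28.8 to 33.0 CPM in control MEP libraries. Its complement gene C1qa stood at 1.18, 0.541, 0.873 and 0.203 CPM in anti-PAPP-A and at 0, 0.190, 0.122 and 0.154 CPM in control MEP libraries, without overlap, on at most 14 counts. Spic stood at 0.101 to 0.631 CPM in anti-PAPP-A and 0.278 to 0.487 CPM in control MEP libraries, and Cd163 at 7.36 to 14.2 CPM in anti-PAPP-A and 8.49 to 13.4 CPM in control MEP libraries. C1qa, 1 of the 14 genes and named after its values were seen, thus separated the treatments, while Spic and Cd163 overlapped. Of 4 tested macrophage genes, 2 had positive log2 differences (median 0.08). The 12-gene erythroid list summed to 1972 to 3885 CPM in anti-PAPP-A and 2235 to 3577 CPM in control MEP libraries, and 12 of 12 of its genes had positive log2 differences (median 0.42). The stress list summed to 2946 to 5425 CPM in anti-PAPP-A and 4634 to 6585 CPM in control MEP libraries, and 0 of 11 of its genes were positive (median -0.43). Of 6 tested megakaryocyte genes 0 were positive (median -0.45). In CLP the stress list summed to 3222 to 4466 CPM in anti-PAPP-A and 4518 to 5110 CPM in control libraries, without overlap. In HSC it summed to 3572 to 5373 CPM and 6337 to 9494 CPM, also without overlap, while in GMP the ranges overlapped. Of its 11 genes, 1 was positive in CLP (median -0.32) and 1 in HSC (median -0.49). Positive erythroid genes were 10 of 11 in CLP (median 0.21) and 7 of 12 in HSC (median 0.03). None of these marker genes was called. The part of these genes in the level of Hmox1 was not tested.

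**Figure D2:**
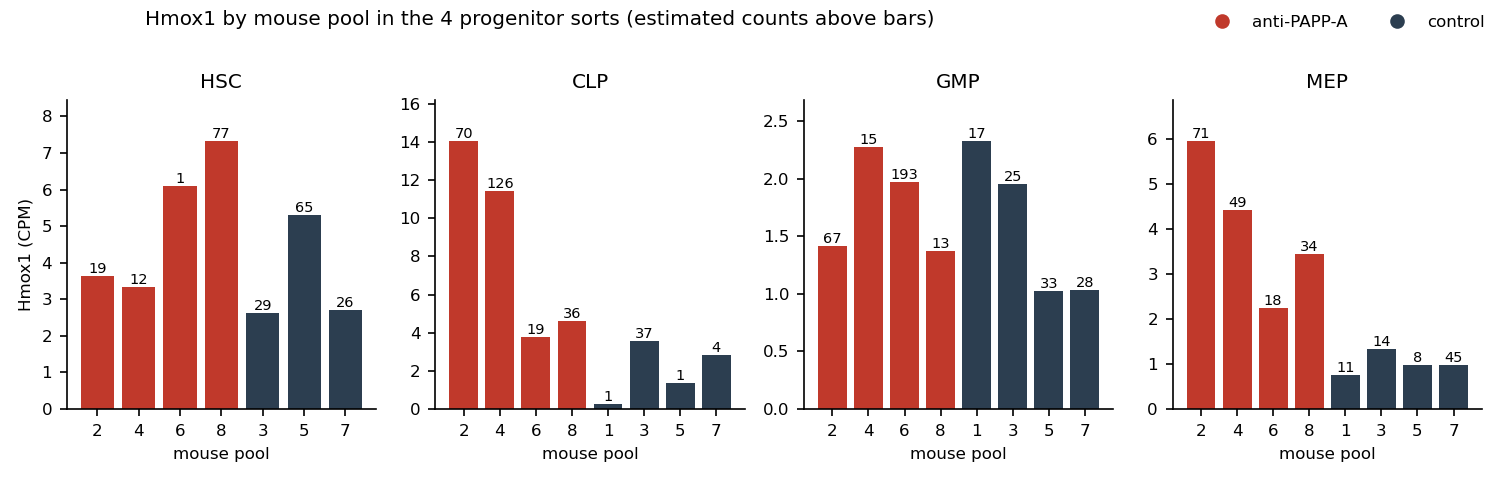
Hmox1 CPM (bars from 0) in each mouse pool of HSC, CLP, GMP and MEP, anti-PAPP-A pools in red and control pools in dark blue, with the estimated count above each bar and a separate vertical scale for each population. In MEP and CLP each red bar is above each dark blue bar, with MEP at 2.25 to 5.96 CPM in anti-PAPP-A and 0.765 to 1.33 CPM in control libraries.

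In Myeloid cells the treatments overlapped in Hmox1. The 6 anti-PAPP-A libraries ranged from 62.0 to 85.6 CPM (median 73.2) and the 6 control libraries from 27.9 to 114 CPM (median 74.8). The log2 difference was 0.05 (SE 0.24). Within batch C the 3 anti-PAPP-A libraries averaged 74.1 CPM and the 3 control libraries 72.1 CPM.

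Hmox2, the constitutive heme oxygenase, followed a flatter course than Hmox1. Per kilobase of transcript, the control means of Hmox2 were 21.9 CPM in MEP and 38.5 to 49.7 CPM in the other 6 populations. Hmox1 on the same scale ran from 0.647 CPM per kb in MEP and 1.01 in GMP to 63.9 in MSC. In MEP, Hmox2 was thus the more abundant per kilobase, while in Myeloid cells Hmox1 at 47.6 and Hmox2 at 49.7 CPM per kb were close.

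Blvrb (chr7:27447978-27466144, plus strand), biliverdin reductase B, an enzyme abundant in red cells, was highest in MEP and WBM. It stood at 202.2 ± 54.2 CPM in control MEP (SD, n = 4) and 215.4 ± 98.9 CPM in WBM. The other control means ran from 31.7 ± 16.8 CPM in MSC through 17.9 ± 9.74 CPM in CLP, 17.1 ± 3.96 CPM in HSC and 11.8 ± 3.93 CPM in Myeloid to 5.12 ± 1.40 CPM in GMP. Only MEP and MSC were neighbours without overlap. The partner Blvra, biliverdin reductase A, kept to between 18.9 CPM in Myeloid and 30.6 CPM in MEP.

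Blvrb stood at 240, 137, 276 and 244 CPM in anti-PAPP-A MEP and at 278, 158, 170 and 203 CPM in control MEP, with overlap. The log2 difference was 0.15 (SE 0.23). In the other sorts the log2 differences of Blvrb ran from -0.27 in Myeloid to 0.53 in CLP, with SEs of 0.30 to 0.57, and the ranges overlapped in each. Among control means, MEP was thus the sort with the most Blvrb and the least Hmox1, though its Hmox1 range overlapped with that of GMP. Under anti-PAPP-A, Hmox1 averaged 4.02 CPM in MEP and was lowest in GMP, at 1.76 CPM.

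Per kilobase of transcript, the ferritin genes were the most abundant of the 9 in each control population. Fth1 (chr19:9980598-9985098, plus strand) stood at 3900 ± 1508 CPM in control Myeloid cells, 2192 ± 1083 CPM in MSC (SD, n = 6 each) and 542 to 1399 CPM in the other control means. Ftl1 (chr7:45457944-45459884, minus strand) stood at 3039 ± 1152 CPM in Myeloid, 2433 ± 1342 CPM in MSC and 637 to 1554 CPM elsewhere. Neighbours in both orders overlapped throughout. MSC split by batch here too, since Fth1 of the control libraries was 1067 to 1342 CPM among those of batch A and 2729 to 3545 CPM among those of batch C.

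The balance of the chains differed between sorts. Per kilobase of transcript, the ratio of Fth1 to Ftl1 was 0.464 to 0.658 in anti-PAPP-A and 0.455 to 0.644 in control GMP libraries. It was 1.23 to 1.54 in anti-PAPP-A and 1.26 to 1.36 in control MEP libraries, and 1.03 to 1.58 in anti-PAPP-A and 1.16 to 2.20 in control CLP libraries. GMP thus leaned to the light chain and MEP and CLP to the heavy chain under both treatments. Processed copies took 0.0905% of the Ftl counts and 0.0685% of the Fth counts, and how the quantification split reads between near-identical copies is uncertain.

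Over all libraries of a sort, the treatments overlapped in both chains. Log2 differences of Fth1 ran from -0.47 (SE 0.27) in Myeloid to 0.26 (SE 0.20) in HSC, and those of Ftl1 from -0.30 (SE 0.17) in Myeloid to 0.12 (SE 0.20) in HSC. In Myeloid cells, Fth1 of batch C stood at 1712, 2627 and 1600 CPM in anti-PAPP-A and at 2635, 4888 and 2963 CPM in control libraries. The highest of these anti-PAPP-A libraries was just below the lowest control library, and how many of all genes separated in this way was not counted. In batch C alone, edgeR gave 1264 of 14325 genes an unadjusted p below 0.05 and called 0. Fth1 of batch B stood at 5610, 1898 and 3474 CPM in anti-PAPP-A and at 6530, 3157 and 3228 CPM in control libraries, with overlap.

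Slc40a1 (chr1:45908068-45926523, minus strand), the iron exporter ferroportin, showed the clearest ladder. Control means were 197.2 ± 38.2 CPM in MSC, 181.4 ± 64.9 CPM in Myeloid (SD, n = 6 each), 134.1 ± 47.1 CPM in WBM and 74.5 ± 16.0 CPM in MEP (n = 4 each). Below them came GMP at 28.4 ± 4.52 CPM, CLP at 16.7 ± 2.09 CPM (n = 4 each) and HSC at 3.13 ± 0.701 CPM (n = 3). MEP and GMP, GMP and CLP, and CLP and HSC did not overlap, while MSC, Myeloid, WBM and MEP overlapped with their neighbours. Unlike Hmox1, Slc40a1 of control MSC did not split by batch, as the values below show.

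The batch A library of anti-PAPP-A MSC held 197 CPM of Slc40a1, beside 215, 187 and 187 CPM in its control libraries. The batch C libraries held 376, 436 and 274 CPM with anti-PAPP-A and 144, 190 and 259 CPM with control treatment. Each of these 3 anti-PAPP-A libraries was above each of the 3 control libraries of its batch, as was the case for 830 of 15984 genes tested (5.19%). The batch A library, of pool 8, was level with its 3 controls. The log2 difference was 0.59 (SE 0.22), ranged from 0.43 to 0.84 over 15 other settings and was not called. Of all 9 genes, Slc40a1 alone had an unadjusted edgeR p below 0.05 in MSC, where 676 of 15984 genes fell below it. The gene was chosen with earlier results known, so this only describes it.

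Other marker lists moved with treatment in MSC, though none of their genes was called. Positive log2 differences were found for 11 of 12 neutrophil genes (median 0.75), 5 of 6 monocyte genes (median 0.68), 11 of 12 erythroid genes (median 0.50) and 6 of 9 macrophage genes (median 0.06). The neutrophil list summed to 1749 to 2040 CPM in anti-PAPP-A and 1112 to 1601 CPM in control libraries of batch C, without overlap, and to 11713 CPM in anti-PAPP-A pool 8 and 2293 to 6922 CPM in its control libraries of batch A. Control Myeloid cells, whose neutrophil list summed to 174845 to 225184 CPM, held 181.4 CPM of Slc40a1 on average, and control MSC held 197.2 CPM. The macrophage list summed to 2692 to 3608 CPM in anti-PAPP-A and 1598 to 2606 CPM in control libraries, without overlap. Most of it was Vcam1, which stromal cells also express: without Vcam1 the other 13 genes summed to 129 to 266 CPM in anti-PAPP-A and 78.1 to 269.6 CPM in control libraries, with overlap. Spic was at 0 in each of these libraries and C1qa was at most 1.57 CPM, while the part of these lists in the level of Slc40a1 was not tested.

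GMP went the other way. The anti-PAPP-A libraries held 15.2, 18.5, 24.4 and 27.1 CPM of Slc40a1 and the control libraries 26.9, 22.8, 31.4 and 32.7 CPM, with overlap. The log2 difference was -0.38 (SE 0.20). It was 0.17 (SE 0.20) in MEP, -0.15 (SE 0.22) in Myeloid and -0.14 (SE 0.30) in CLP. HSC had -0.10 (SE 0.73), where 1 anti-PAPP-A library held 1 count and another held 0.

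**Figure D3:**
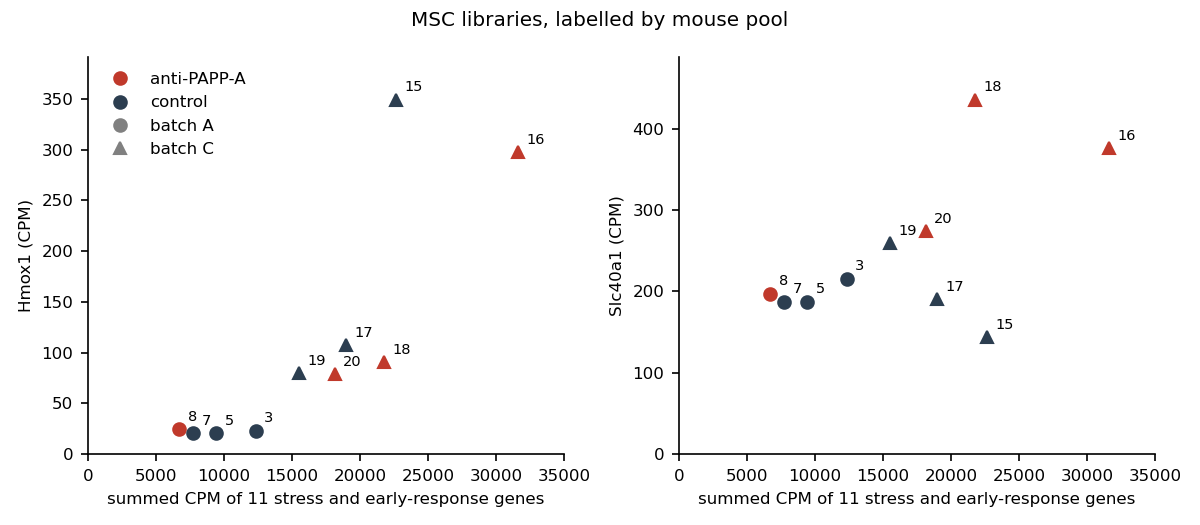
Hmox1 (left) and Slc40a1 (right) CPM against the summed CPM of 11 stress and early-response genes in the 10 MSC libraries, labelled by mouse pool, anti-PAPP-A in red and control in dark blue, circles for batch A and triangles for batch C. Hmox1 is at 20.6 to 24.4 CPM in the 4 batch A libraries and at 79.0 to 349 CPM in the 6 of batch C, while Slc40a1 of batch C is highest in anti-PAPP-A pools 18 and 16.

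Tfrc (chr16:32608920-32632794, plus strand), the transferrin receptor and the carrier of the 4 hairpins behind the coding sequence printed above, was lowest in MSC, where Slc40a1 was highest. Control means were 632 ± 388 CPM in WBM, 375 ± 51.1 CPM in MEP, 300.0 ± 105.5 CPM in CLP and 151.7 ± 15.3 CPM in GMP (SD, n = 4 each). They were 88.0 ± 34.1 CPM in Myeloid (n = 6), 59.5 ± 3.14 CPM in HSC (n = 3) and 25.1 ± 13.5 CPM in MSC (n = 6). CLP and GMP did not overlap, nor did HSC and MSC. The WBM mean rested on pool 15 of batch C, at 1203 CPM against 335 to 504 CPM in batch A, and the erythroid list of that library summed to 208624 CPM against 15876 to 20978 CPM.

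In MEP, Tfrc stood at 446, 352, 556 and 582 CPM in anti-PAPP-A and at 423, 362, 309 and 407 CPM in control libraries. The ranges overlapped through pool 4, and the log2 difference was 0.37 (SE 0.16). In MSC it was 0.54 (SE 0.42), where pool 8, the library with lymphoid genes, held 66.3 CPM and the other anti-PAPP-A libraries 22.5 to 34.4 CPM. Without pool 8 the direction turned, at -0.13. In the other sorts the difference ran from -0.25 in HSC to 0.01 in Myeloid.

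Nqo1 (chr8:107388225-107403206, minus strand), a quinone reductase, and Gclm (chr3:122245557-122270732, plus strand), the modifier subunit of the enzyme that begins glutathione synthesis, are classic NRF2 targets and were both highest in MEP. Nqo1 stood at 18.4 ± 2.12 CPM in control MEP (n = 4) and 8.29 ± 1.56 CPM in HSC (n = 3), each apart from the next below, and at 0.560 to 5.10 CPM in the other control means (SD throughout). Gclm stood at 237 ± 25.3 CPM in MEP and 96.4 ± 5.34 CPM in HSC, without overlap, and was lowest in MSC at 23.1 ± 13.3 CPM. Hmox1, another NRF2 target, had its lowest control mean in MEP.

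Their regulator Nfe2l2, which encodes NRF2, averaged 150 ± 8.96 CPM in control MEP and 146 ± 29.2 CPM in Myeloid and was lowest in CLP at 54.6 ± 9.55 CPM. Keap1, which marks NRF2 for breakdown, was 34.97 ± 10.2 CPM in MSC and 49.6 to 71.1 CPM elsewhere. Bach1 was 98.5 ± 26.0 CPM in Myeloid and 24.4 to 45.1 CPM in the other control means. Gclc, the catalytic partner of Gclm, was also highest in MEP, at 99.3 ± 11.1 CPM, and lowest in Myeloid at 7.93 ± 3.99 CPM.

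The treatments overlapped in Nqo1 and Gclm in each sort. In MEP, Nqo1 held 20.4, 12.6, 18.6 and 14.5 CPM in anti-PAPP-A and 20.9, 15.9, 19.0 and 18.0 CPM in control libraries (log2 difference -0.16, SE 0.17), next to the Hmox1 difference of 2.00. Gclm in MEP had 262, 220, 287 and 274 CPM in anti-PAPP-A and 269, 213, 222 and 245 CPM in control libraries (log2 difference 0.14, SE 0.11). In MSC the log2 difference of Gclm was 0.56 (SE 0.40), with 31.4 to 52.5 CPM in anti-PAPP-A and 2.64 to 35.02 CPM in control libraries. Nqo1 was filtered out of the CLP test for low counts and had SEs of up to 1.22 elsewhere, in Myeloid.

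Hpx (chr7:105591613-105600137, minus strand) encodes hemopexin, a plasma heme scavenger made mainly by liver, and was near the limit of detection. Only MSC held it above 1 CPM on average, with 0, 2.53, 6.96 and 6.08 CPM in anti-PAPP-A libraries of pools 8, 16, 18 and 20. Control MSC of batch A had 1.06, 0 and 0 CPM, and control MSC of batch C had 1.39, 3.36 and 3.26 CPM. These values rest on at most 139 counts, and the log2 difference of 0.60 had an SE of 1.28. In HSC all 4 anti-PAPP-A libraries held 0 counts, which allows 0.286 to 18.3 CPM (3 counts of each library), and the control libraries held 0.543, 0.0818 and 0.311 CPM on 6, 1 and 3 counts. For 3 of these 4 pools that limit is above each control level. Hpx was too low to be tested outside MSC in the treatment comparisons.

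Counted over all members and sorts, 48 treatment comparisons were tested and edgeR called none of the 9 genes. The share of all genes called was 0.0313% in MSC (5 of 15984), 0.00690% in HSC (1 of 14494) and 0% in CLP, GMP, MEP and Myeloid. At an unadjusted p below 0.05 there were 4 of the 48: Hmox1 in CLP and MEP, Slc40a1 in MSC and Tfrc in MEP. The same threshold took 444 of 13307 genes in MEP, 29 of 12520 in CLP and 195 of 15334 in GMP. It took 437 of 16803 in Myeloid, 676 of 15984 in MSC and 1156 of 14494 in HSC. The members were chosen with earlier results known, so these 4 are a description. DESeq2 called Hmox1 in MEP and no other member in any sort. The median log2 difference of the 8 members tested in MEP was 0.14, with 7 positive, beside 0.01 over all genes.

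**Figure D4:**
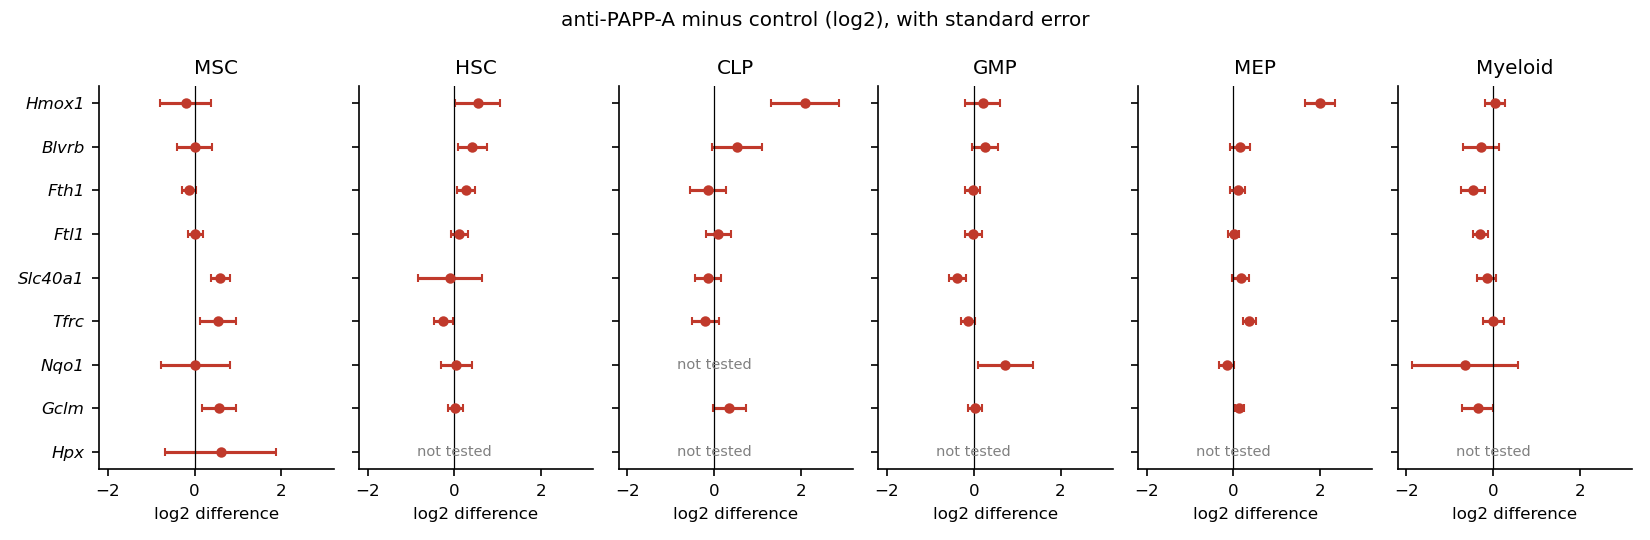
Log2 difference, anti-PAPP-A minus control, with its standard error, for each of the 9 genes in the 6 sorted populations. Hmox1 in CLP (2.10) and MEP (2.00) lies far to the right of the others, which lie between -0.65 and 0.73.

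Between control populations, each sort was set against the mean of the other 5 in 1 edgeR fit. MSC had 5 members higher and 2 lower of 9, beside 50.4% of all genes called. Hmox1, Fth1, Ftl1, Slc40a1 and Hpx were higher there by 3.28, 0.76, 0.94, 2.99 and 3.41 on the log2 scale, and Tfrc and Gclm differed by -3.09 and -1.66. MEP had 5 higher (Blvrb, Slc40a1, Tfrc, Nqo1 and Gclm) and 1 lower (Hmox1), beside 28.3%. Myeloid, whose level rests on its batch C libraries, had 2 higher (Hmox1 and Slc40a1) and 2 lower (Blvrb and Gclm), beside 37.2%. MSC was the only sort of this fit with libraries in batches A and C. The Myeloid level was therefore shifted by the gap between these batches in control MSC. Hmox1 averaged 21.5 CPM in control MSC of batch A and 179 CPM in batch C, and Fth1 averaged 1236 and 3148 CPM. Each Myeloid difference from the other sorts carries that gap.

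GMP had 1 member higher (Tfrc) and 5 lower (Hmox1, Blvrb, Fth1, Slc40a1 and Nqo1), beside 22.7% of all genes. HSC had 1 higher (Gclm) and 3 lower (Fth1, Slc40a1 and Tfrc), beside 19.8%. CLP had 1 higher (Tfrc) and 2 lower (Ftl1 and Slc40a1), beside 10.9%. In a limma voom fit with the mouse pool as a replicate block, GMP had 3 members called (Blvrb, Fth1 and Nqo1) and CLP had 1 (Tfrc). The calls of Hmox1 in MEP and in Myeloid were lost. In HSC that fit lost Tfrc and gained Nqo1, and in Myeloid it gained Fth1. Voom was not run without the block, so the change of method and the block cannot be told apart. HSC had 1 called without pool 5 or without pool 7 and 2 without pool 3 or without pool 17. GMP had 3 without pool 3, 5 or 7, and the call of Hmox1 in Myeloid was also lost without pool 3, 5, 7, 9, 13, 17 or 19. The members were chosen with such patterns known, so these counts only describe them.

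The other genes of heme and iron biology were read from 7 lists with 97 genes. Treatment was called in none of them by edgeR with its low-count filter or by DESeq2, with 16 of 486 tests at an unadjusted p below 0.05 in edgeR. Without that filter edgeR called Ltf and Lcn2 in MSC and G6pdx and Osgin1 in Myeloid. In MEP, 11 of 12 heme synthesis genes had positive log2 differences, with a median of 0.14 beside 0.01 over all genes. The erythroid markers moved with them, with 12 of 12 positive and a median of 0.42. In Myeloid, 28 of 83 pathway genes had positive log2 differences, with a median of -0.09 beside -0.03 over all genes. There 1 of 12 neutrophil genes (median -0.31) and 0 of 6 GMP genes (median -0.24) were positive, while 8 of 8 erythroid genes (median 0.41) and 6 of 6 stromal genes (median 0.85) were. The part of these marker genes in the pathway differences was not tested.

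Among control populations, heme synthesis genes were mostly higher in MEP. Of 12 heme synthesis genes, 10 were higher and 1 lower in MEP than in the mean of the other sorts, with a median log2 difference of 1.75 beside -0.07 over all genes. Cpox, an enzyme late in heme synthesis, stood at 273 ± 54.4 CPM there (n = 4) and 15.8 to 41.4 CPM in the other sorts (log2 3.31, SE 0.26, edgeR adjusted p = 5.56e-10). Of 12 iron-sulphur cluster genes, 8 were higher and 0 lower in MEP, where 28.3% of all genes were called (3081 higher and 2502 lower). Steap3, the ferrireductase that lets endosomal iron pass, stood at 150 ± 21.2 CPM in MEP (log2 3.48, SE 0.24, edgeR adjusted p = 7.81e-11). Lower in MEP were Hp, haptoglobin (log2 -4.65), and the glutathione transferase gene Gstm1 (log2 -2.85).

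In MSC, where 50.4% of all genes were called (5767 higher and 4174 lower), the lists differed. Of 11 genes of heme uptake, transport and further degradation, 6 were higher and 1 lower, and of 9 tested sensing genes, 6 were higher and 1 lower. Of 16 genes of iron uptake, storage and export, 6 were higher and 5 lower. Epas1, the hypoxia factor HIF-2 alpha, stood at 807 ± 253 CPM in MSC (n = 6) and had means of at most 3.17 CPM in the other sorts (log2 9.64, SE 0.22, edgeR adjusted p = 6.49e-23). Trf, transferrin, stood at 2496 ± 910 CPM there and 24.3 to 100.3 CPM in the other sorts (log2 5.35, SE 0.17, edgeR adjusted p = 4.64e-20). Nfe2, an erythroid and megakaryocyte factor, and Tkt, transketolase, were lower in MSC, by log2 differences of -3.73 and -2.76. Tfrc was lowest in this transferrin-rich sort.

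Myeloid cells had 6 of 12 heme synthesis genes lower and 0 higher, and 6 of 12 iron-sulphur genes lower and 0 higher, beside 37.2% of all genes called (3205 higher and 4129 lower). The list medians were -1.01 and -1.07 on the log2 scale, beside -0.26 over all genes. All these Myeloid differences carry the batch gap of control MSC described above. Fech, which inserts iron into the heme ring, stood at 13.4 ± 8.53 CPM there (n = 6; log2 -2.91, SE 0.34, edgeR adjusted p = 1.98e-07), and Steap3 at 4.17 ± 2.71 CPM (log2 -4.27). Fbxl5, which senses iron and removes an iron regulatory protein, was at 501 ± 198 CPM (log2 4.30, SE 0.37, edgeR adjusted p = 1.73e-09). Gsr, glutathione reductase, was at 1377 ± 273 CPM (log2 2.78).

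GMP led in Alas1, the first enzyme of heme synthesis outside red cells, at 611 ± 84.6 CPM (n = 4; log2 3.54, SE 0.25, edgeR adjusted p = 9.28e-11), and in Gstm1 at 654 ± 133 CPM (log2 3.25), with Epas1 and Fbxl5 lower. HSC had higher Nfe2 (log2 1.60) and Abcg2, a porphyrin exporter (log2 1.87), and lower Hp (log2 -4.74) and Gsr (log2 -2.44). CLP had higher Bach2, a repressor related to BACH1 (26.0 ± 10.7 CPM, n = 4, log2 2.42, SE 0.37, edgeR adjusted p = 8.42e-05), and lower Nfe2l2 (log2 -1.22) and Epas1. CLP had 19 of 91 pathway genes called, which fell to 4 in the voom fit with the replicate block.

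**Figure D5:**
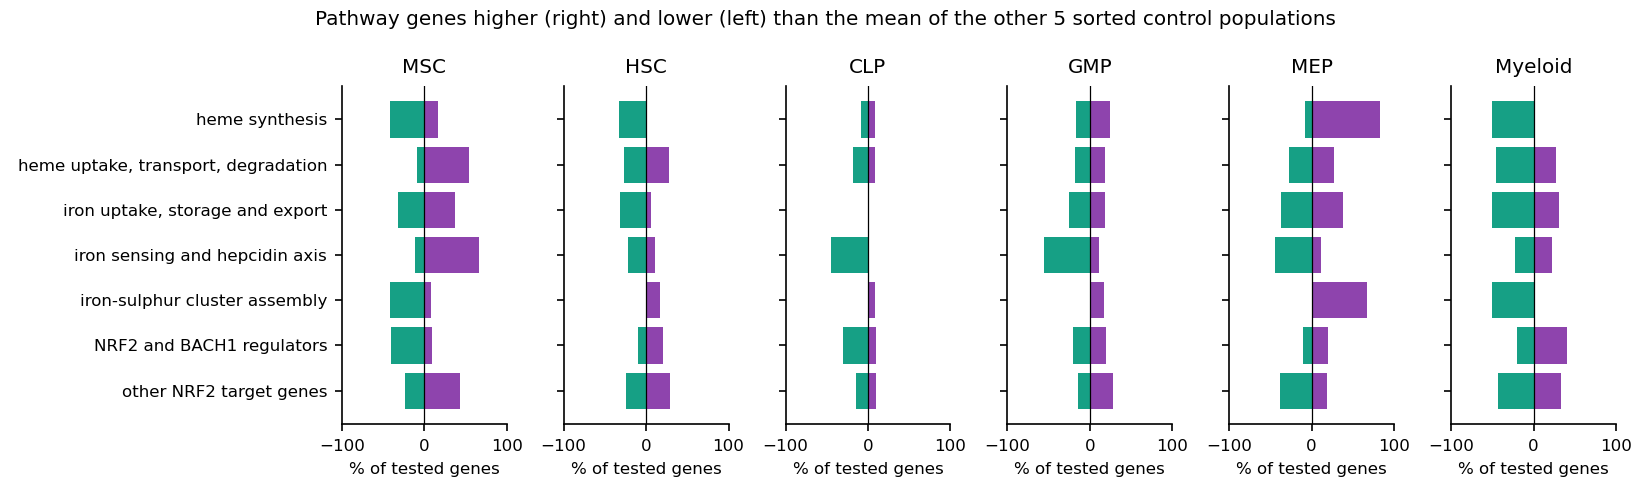
Percent of the tested genes of each of 7 lists that were higher (right, purple) or lower (left, green) than the mean of the other 5 sorted control populations at an adjusted p below 0.05. Heme synthesis (10 of 12) and iron-sulphur cluster genes (8 of 12) point right in MEP and left in Myeloid (6 of 12 each).

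The genes most like Hmox1 in log2(CPM + 1) over all 31 control libraries, among 16218 genes with a mean of at least 1 CPM, were Gsn, Myadm, Card10, Id2 and Ube2h, with Pearson r of 0.92 to 0.94. Of the other members, Ftl1 (0.85), Fth1 (0.77) and Slc40a1 (0.70) came closest to Hmox1, and Tfrc (-0.34) and Gclm (-0.34) ran against it. Those most like Slc40a1 were Wipi1 (0.90), Atp6v0a1 (0.88) and Klf3 (0.87). Libraries of 1 population share cell type, batch and depth, so the coefficients describe these libraries.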

How the data were processed

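RNA came from sorted cells or unsorted marrow, and the library kit (NEBNext Ultra II Directional) keeps strand, per the labels. The authors deposited an estimated count for each gene and library, already a whole number and not scaled, made with Salmon and mm10 after FastQC 0.11.5, per the submitters' processing notes. No source used here gives the Salmon version or the annotation release. Repeated lines for 1 gene never differed, and 1 was kept.

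Treatment was tested within each population with edgeR 4.0.16 in R 4.3.3 (filterByExpr, TMM, robust quasi-likelihood, Benjamini-Hochberg at 0.05), with batch as a term in MSC and Myeloid. Control populations were compared in 1 fit on population and batch. Batch B held Myeloid cells only, and Myeloid was tied to the batch A sorts through MSC, the only sort in batches A and C. SEs come from the test statistic. CPM is TMM-scaled over all 57 libraries. The fits were tested on simulated data. Alternatives were DESeq2 1.42.0, no filter, left-out libraries and, across populations, the pool as a replicate block (limma 3.58.1 voom, consensus correlation 0.099), since the labels' pool number marks shared mice. P-values measure the spread between pools, and limits from 0 counts cover counting error only. Hairpins and positions are from GENCODE M21 on GRCm38, and the authors' release may differ.

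The 9 genes and the lists were chosen with earlier results of these data known. Named beside them were 6 partner genes, the 2 called pathway genes with the smallest p in each direction of each comparison (1 of them is not reported here), and the genes whose levels correlated most with Hmox1 (5) and with Slc40a1 (3). Single marker genes were named after their values were seen.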

Additional observations from a re-analysis of the deposited data

Results flagged for a closer look

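In 107 groups of 4 to 10 libraries, the highest or lowest library was checked for a gap that stood out against the group's range (Dixon's test at 95%), and 10 did. The test's rate of about 1 in 20 holds for normally distributed values. These were unlogged CPM with zeros and unequal depth, and the MSC and Myeloid groups mix batches. A group with a single library above 0 is always flagged, so the 10 flags cannot be set against that rate. Hmox1 was far highest in MSC control pool 15, at 349.4 CPM, and Blvrb far lowest in Myeloid control pool 15, at 4.115 CPM. Fth1 was far highest in CLP control pool 1, at 1622 CPM, which is also the control CLP library with the most neutrophil RNA. Slc40a1 was far lowest in MEP anti-PAPP-A pool 4, at 53.7 CPM, and Tfrc far highest in HSC anti-PAPP-A pool 6, at 91.37 CPM on 15 counts. Nqo1 was at 0 CPM in MSC control pool 7, a library of 321860 counts. Hpx stood out at 1.205 CPM in CLP anti-PAPP-A pool 2 and 0.272 CPM in CLP control pool 1, each the only library of its group above 0. It also stood out at 0.2025 CPM in MEP anti-PAPP-A pool 8 and 0.2831 CPM in Myeloid anti-PAPP-A pool 12.

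Slc40a1 went opposite ways in 2 sorts: each anti-PAPP-A library was above the control mean of its batch in MSC and below the control mean in GMP. The mean effects on log2(CPM + 0.5) differed by 1.096. The MSC library of pool 8, at 197 CPM, was barely above its control mean, and the difference between the sorts was not tested.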

How the results depend on the processing

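No member passed the edgeR threshold for treatment in any sort when any 1 library was left out (range 0 to 0 for members and for pathway genes). DESeq2 called 1 member in MEP. Without the low-count filter, 2 pathway genes were called in MSC (Ltf and Lcn2) and 2 in Myeloid (G6pdx and Osgin1). Of 594 log2 differences of members under other settings, 593 moved by less than 1 SD, and Nqo1 in Myeloid was -2.59 without anti-PAPP-A pool 20. Tfrc in MSC turned to -0.13 without anti-PAPP-A pool 8.

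Between control populations, HSC had 1 member called without the filter and 2 without the libraries under 1000000 counts, and CLP had 11 pathway genes without those libraries. In the voom fit with the pool as a replicate block, CLP had 1 member and 4 pathway genes called and GMP had 3 members. Leaving out 1 pool gave 1 to 4 members and 19 to 37 pathway genes in HSC, 2 to 3 and 5 to 18 in CLP, and 3 to 6 and 21 to 41 in GMP. It gave 6 to 6 and 49 to 61 in MEP, 6 to 7 and 43 to 59 in MSC, and 3 to 5 and 51 to 61 in Myeloid. The cause was not tested. Hmox1 in CLP rests on 1 to 4 counts in 3 control libraries, and low counts kept Nqo1 in CLP and Hpx outside MSC untested. The fits of CLP without pools 1 and 2 (Hmox1 log2 difference 1.17) and of Myeloid batch B alone were chosen after seeing the data. The voom fit with the replicate block changed no other count of members or pathway genes by over 1.5 times.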
